A study of Mus musculus with 2 samples.

Results

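The 6 genes described here encode ligands and receptors with which antigen-presenting cells stimulate or restrain T cells: Cd40, Cd80, Cd86, Cd83, Cd274 (PD-L1) and Pdcd1lg2 (PD-L2). They were picked by symbol from the 31053 genes listed for each library, and all 6 were found. The cells were macrophages derived in culture from bone marrow of 129Sv mice, grown with 10% fetal bovine serum and 50 ng/ml M-CSF. On day 7 after harvest the THP group received 1 µg/ml of truncated Tamm-Horsfall protein, a non-polymerizing form of the kidney protein uromodulin, and the vehicle group received 5% dextrose, each for 18 h. RNA of single cells was then counted in droplets by unique molecular identifiers (UMIs). There was 1 library per group, so no difference between the groups has a replicate check, treatment cannot be told apart from dish or library preparation, and no p-value is given.

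CD80 and CD86, members of the B7 family, bind CD28 on T cells to costimulate them and CTLA-4 to restrain them. CD40 is a receptor of the TNF receptor superfamily through which T cells carrying CD40 ligand activate macrophages, dendritic cells and B cells, with NF-kB as the main downstream route. CD83 marks maturing dendritic cells and protects MHC class II and CD86 from the ubiquitin ligase MARCH1, while PD-L1 and PD-L2 bind PD-1 on T cells and dampen their response.

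The barcode filter kept 12123 cells of the THP and 10978 of the vehicle library, which held 224825484 and 207662132 UMIs. The median cell had 16113 UMIs and 3699 detected genes with THP, and 17223 UMIs and 4134.5 genes with vehicle. The libraries had 42 barcode sequences in common, of which 39 THP and 41 vehicle cells were kept. All 10 macrophage markers were detected in both libraries, at a summed level of 2209 CPM (UMIs per 1e+06 UMIs) with THP and 1771 CPM with vehicle. The cultures also held other cells: the summed level of 8 mature neutrophil markers was 21620 CPM with THP and 26753 CPM with vehicle.

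Cd274 and Pdcd1lg2 are neighbours on chromosome 19, on the plus strand, at chr19:29367455-29388095 and chr19:29410919-29471161 of GRCm38. Cd80 lies at chr16:38455561-38496335 on the plus strand and Cd86 at chr16:36603869-36666081 on the minus strand. Cd40 spans chr2:165055627-165072948 and Cd83 spans chr13:43784775-43803132, both on the plus strand. A promoter sequence was matched for 3 of the 6 genes (Cd80, Cd274 and Pdcd1lg2). The 250 bases before the RefSeq start site (GRCm38.p6) of the neighbouring pair are shown, because these genes encode ligands of the same receptor. Both genes also had their highest levels in different gates among the 8 cell gates compared, although the Pdcd1lg2 level rests on few UMIs. The 2 windows lie at chr19:29367188-29367437 and chr19:29410669-29410918 on the plus strand, and capitals mark a match to the NF-kB binding motif (kB).
Cd274: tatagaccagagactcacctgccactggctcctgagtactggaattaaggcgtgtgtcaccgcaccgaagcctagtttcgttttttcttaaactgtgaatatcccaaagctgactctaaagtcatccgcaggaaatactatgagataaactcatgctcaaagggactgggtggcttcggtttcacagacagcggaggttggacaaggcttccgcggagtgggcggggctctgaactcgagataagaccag
Pdcd1lg2: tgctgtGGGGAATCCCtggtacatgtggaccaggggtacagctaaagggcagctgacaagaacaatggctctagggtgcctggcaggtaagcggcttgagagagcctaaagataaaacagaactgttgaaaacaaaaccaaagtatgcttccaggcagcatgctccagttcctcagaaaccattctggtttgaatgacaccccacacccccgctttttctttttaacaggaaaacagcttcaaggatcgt

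Both strands were searched for the kB motif, the interferon-response-like letters GAAANNGAAA, the letters TTCNNNGAA and the AP-1 letters TGANTCA. The Pdcd1lg2 window held the kB match at bases 7 to 16 from its 5′ end, where the motif matches on both strands. The Cd80 window, at chr16:38458683-38458932, held an AP-1 match, TGATTCA, at bases 209 to 215, and the Cd274 window held none of the 4 motifs. Of 32851 RefSeq windows of this length, 3.90% held the kB motif, 2.98% GAAANNGAAA, 7.02% TTCNNNGAA and 6.75% TGANTCA. These matches describe letters in the window only.

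Cd40 showed the largest difference of the 6 genes. It had 3257 UMIs with THP and 651 with vehicle. That is 14.5 CPM (14.0 to 14.99, exact Poisson 95% interval) against 3.13 CPM (2.90 to 3.39). All intervals given here cover counting error only. The log2 ratio of CPM + 1, THP over vehicle, was 1.91, or 3.75-fold on that scale, which understates the change of genes near 1 CPM. A gene was counted as higher or lower when it had 10 CPM or more in either library and differed at least 2-fold on that scale. By this rule 1 of the 6 genes, Cd40, was higher and 0 were lower. Cd40 reached 10 CPM with THP only, so at its vehicle level it could not have been counted as lower. Over all genes, 73 of 8012 with at least 10 CPM (0.911%) were higher and 238 (2.97%) were lower, and the median log2 ratio of those genes was -0.18 with a central 95% of -1.04 to 0.56. Cd40 lay at percentile 99.8 of that distribution. It also passed in each of 12 alternative settings, where its log2 ratio ranged from 1.69 to 2.17. A fold limit of 1.5, a minimum of 1 CPM and no minimum were among the 12. They only relax the rule and leave the log2 ratio of every gene unchanged, so Cd40 could not fail them.

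Cd83 had 2033 UMIs with THP and 803 with vehicle. Its level was 9.04 CPM (8.65 to 9.44) against 3.87 CPM (3.60 to 4.14), with a log2 ratio of 1.05. This is past 2-fold, but both levels were under 10 CPM, so Cd83 was not counted as higher. Its log2 ratio lay between 0.88 and 1.29 in the 12 alternative settings, and it was counted as higher in 3 of them, those without the 10 CPM minimum and that with equal weight per cell. A single THP cell held 55 of its UMIs.

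Of the B7 genes, Cd86 was lower with THP by under 2-fold, and the direction of Cd80 depended on the scaling. Cd86 had 2447 UMIs or 10.9 CPM (10.5 to 11.3) with THP and 3140 UMIs or 15.1 CPM (14.6 to 15.7) with vehicle. Its log2 ratio was -0.44, it was lower in all 12 alternative settings (-0.47 to -0.18), and it did not reach 2-fold. That ratio lay at percentile 27.6 of all genes tested, whose median was -0.18. Cd80 had 1027 UMIs or 4.57 CPM (4.29 to 4.86) against 1136 UMIs or 5.47 CPM (5.16 to 5.80). Its log2 ratio was -0.22, close to the median of all genes, and it was 0.02 when the libraries were scaled by TMM (trimmed mean of M-values). TMM scaling moved the median of all genes to 0.11, a shift of 0.29, and turned the counts of all genes into 138 higher and 69 lower, so that 66.7% of the called genes were higher instead of 23.5%.

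Of the PD-1 ligands, Cd274 had 1811 UMIs or 8.06 CPM (7.69 to 8.43) with THP and 1154 UMIs or 5.56 CPM (5.24 to 5.89) with vehicle. Its log2 ratio was 0.47, under 2-fold, and it was higher in all 12 alternative settings (0.43 to 0.74). Pdcd1lg2 was rare, with 124 UMIs or 0.552 CPM (0.459 to 0.658) against 90 UMIs or 0.433 CPM (0.349 to 0.533). The interval of its log2 ratio without a pseudocount ran from -0.06 to 0.76, so no difference was detectable at this depth.

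**Figure D1:**
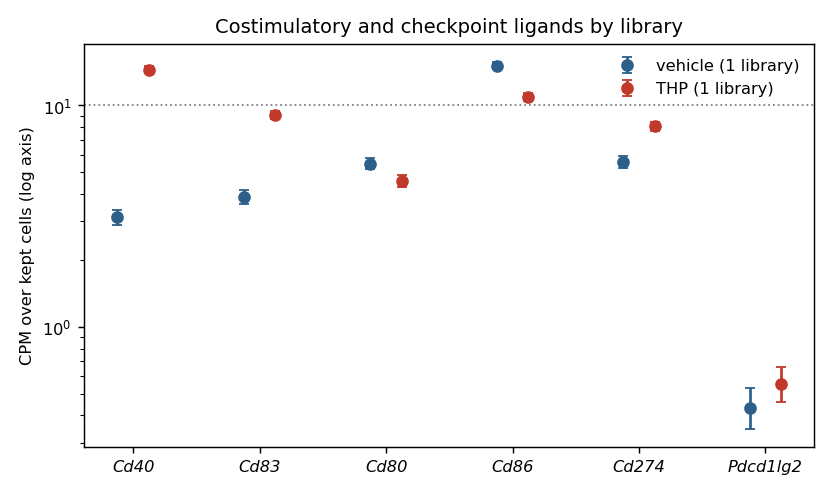
Level of each of the 6 genes in either library, in CPM on a log axis; points are library values over all kept cells and bars are exact Poisson 95% intervals. Cd40 (14.5 against 3.13 CPM), Cd83 and Cd274 sit higher with THP, Cd86 (10.9 against 15.1 CPM) sits lower, and the dotted line marks the minimum of 10 CPM.

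**Figure D2:**
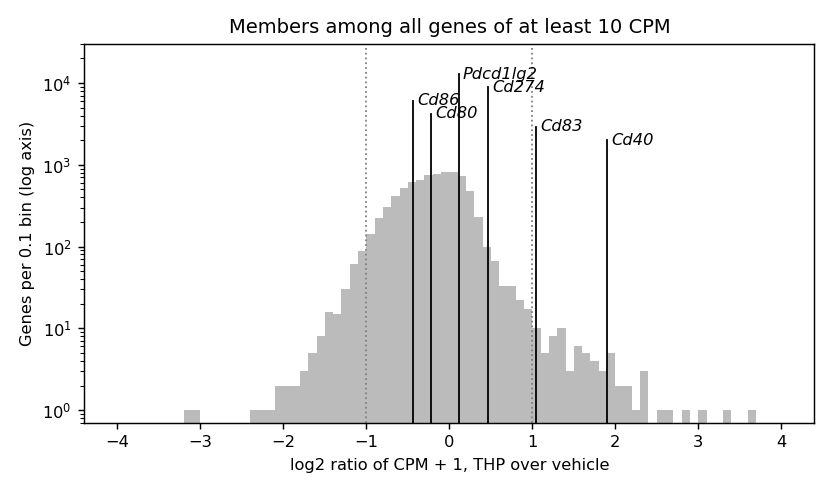
Histogram of the log2 ratio of CPM + 1, THP over vehicle, for the 8012 genes with 10 CPM or more in either library, with dotted lines at 2-fold. The values of the 6 genes are marked. Only Cd40 and Cd86 are among the 8012, and the other members were under 10 CPM in both libraries and are marked for position only. Cd40 at 1.91 and Cd83 at 1.05 lie past the right line, and Cd80 at -0.22 lies near the median of -0.18.

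The shares of cells with at least 1 UMI of Cd40, Cd83, Cd274 and Cd86 had the same directions as the levels. For Cd40 it was 18.2% of THP and 4.94% of vehicle cells. To compare cells of equal depth, each cell was thinned to 5000 UMIs. This left 10165 THP and 9012 vehicle cells and removed 1958 and 1966 shallower ones. Of the mature neutrophil gate (gates are described below), 110 of 770 THP and 114 of 873 vehicle cells were left. Of the macrophage gate, 4896 of 5046 and 2932 of 3017 were left. The thinned shares therefore describe another mix of cells, and that mix still differed between the libraries. The Cd40 share was then 6.45% (5.98 to 6.95, exact Clopper-Pearson 95% interval) and 1.39% (1.16 to 1.65). The Cd83 share was 10.5% against 4.69% before thinning and 3.61% against 1.56% after it. For Cd274 it was 11.03% against 7.54%, and 3.28% against 2.34% after thinning. The Cd86 share was lower with THP, 15.01% against 17.7%, and 5.60% against 6.90% after thinning. For Cd80 the thinned shares were 2.08% and 2.39%, with overlapping intervals, and for Pdcd1lg2 0.295% and 0.200%, also overlapping.

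To see which cells held the transcripts, cells were assigned to marker gates. A gate took cells in which the UMIs of a fixed set of marker genes, none of them among the 6, passed a threshold per 10000 UMIs. The thresholds were set from the markers alone. A gate is a range of a marker sum and not a proven cell type. Of 12 gates, 8 held at least 50 cells in each library. The macrophage gate (C1q genes, Adgre1, Mrc1 and others) held 5046 THP cells (41.6%) and 3017 vehicle cells (27.5%), and the gate of osteoclast-like macrophages (Atp6v0d2, Acp5, Ctsk and others) 703 and 668. The monocyte gate held 707 and 1018 cells, the gate of MHC class II high antigen-presenting cells 727 and 709, and that of myeloid progenitors 1128 and 1493. The immature neutrophil gate held 1221 and 1609 cells, the mature neutrophil gate 770 and 873, and the stromal gate 70 and 68. In every gate more of the 10 genes with the highest fold over other cells were markers of its own class than of any other. Cells were gated on these same markers, so this outcome was largely fixed in advance and does not test what the gates are. At most 25% above the threshold lay 9.24% of THP and 10.8% of vehicle cells in the macrophage gate, and 8.53% and 7.33% in the MHC class II high gate. The median cell of the macrophage gate had 1.28 (THP) and 1.68 (vehicle) UMIs of MHC class II high markers per 10000, against 173 and 165 in the MHC class II high gate. That contrast too follows from the gating, which cut on this sum. No gate took 865 THP and 617 vehicle cells, and 684 and 771 cells passed more than 1 gate and were left out.

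Among the 8 compared gates, Cd40 was highest in the MHC class II high gate of both libraries. There it had 376 UMIs or 32.6 CPM (29.4 to 36.1) with THP and 98 UMIs or 7.03 CPM (5.71 to 8.57) with vehicle, a log2 ratio of 2.07. In the macrophage gate it had 17.4 CPM (16.7 to 18.2) against 4.53 CPM (4.07 to 5.03), with a log2 ratio of 1.74. In the osteoclast-like gate it had 11.7 CPM (10.2 to 13.4) against 3.52 CPM (2.77 to 4.41), with a log2 ratio of 1.49. The intervals of these gates did not overlap among THP cells, and neither did those of the MHC class II high and macrophage gates among vehicle cells, where the macrophage and osteoclast-like intervals overlapped. Lower levels were found in the stromal gate (6.79 and 1.76 CPM), the monocyte gate (4.05 and 0.668 CPM), the progenitor gate (1.43 and 0.0926 CPM) and the immature neutrophil gate (1.35 and 0.167 CPM). The mature neutrophil gate held 1 and 0 Cd40 UMIs, too few for a ratio. In each of the other 7 gates Cd40 was higher with THP, and the interval of the ratio excluded equality. The progenitor gate held only 29 and 3 Cd40 UMIs and the immature neutrophil gate 11 and 2. RNA set free from broken cells was estimated only for the immature neutrophil gate (below), and its part in the other gates was not tested. The 7 gates are therefore not 7 separate findings.

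Among the same 8 gates, Cd83 had its highest levels in the osteoclast-like gate, 16.6 CPM (14.9 to 18.6) with THP and 8.49 CPM (7.30 to 9.82) with vehicle, a log2 ratio of 0.89. In the MHC class II high gate it had 16.1 CPM (13.8 to 18.6) against 4.16 CPM (3.16 to 5.38), with a log2 ratio of 1.73. The THP intervals of these gates overlapped. The macrophage gate had 9.67 CPM (9.14 to 10.2) against 4.31 CPM (3.86 to 4.80), with a log2 ratio of 1.01. Its vehicle interval overlapped that of the MHC class II high gate. A single THP cell held 55 of the 1213 Cd83 UMIs of the macrophage gate, and the interval counts these as independent. The ratio without that cell was not computed. In the monocyte gate Cd83 had 2.48 CPM from 30 UMIs against 0.716 CPM from 15. It had 4 and 7 UMIs in the immature neutrophil gate, 4 and 5 in the progenitor gate and 7 and 1 in the mature neutrophil gate. The stromal gate went the other way, with 3 UMIs against 11, and the interval of that ratio included equality.

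Of the 8 compared gates, the MHC class II high gate had the most Cd86, where it was lower with THP: 507 UMIs or 44.0 CPM (40.3 to 48.0) against 915 UMIs or 65.7 CPM (61.5 to 70.1), with a log2 ratio of -0.57. Next came the mature neutrophil gate with 19.3 CPM (14.2 to 25.7) against 25.7 CPM (19.996 to 32.5), from 47 and 69 UMIs. The monocyte gate had 15.4 CPM (13.2 to 17.7) against 21.0 CPM (19.1 to 23.0), and the intervals of these neighbours overlapped in both libraries. The macrophage gate had 9.57 CPM (9.04 to 10.1) against 12.9 CPM (12.1 to 13.7), with a log2 ratio of -0.40. The osteoclast-like gate had 5.29 against 6.99 CPM. Cd86 was lower with THP in 6 of 8 gates, and in 4 of them (MHC class II high, monocyte, macrophage and osteoclast-like) the interval excluded equality when scaled by total UMIs. On that scale the median log2 ratio of all genes tested was also negative, at -0.21, -0.16, -0.16 and -0.18 in these gates. The osteoclast-like interval of Cd86 (-0.78 to -0.03) included its gate median, and the intervals in the others did not. Cd86 was at 2.17 against 1.57 CPM in the progenitor gate and 3.39 against 1.76 CPM in the stromal gate, where the interval included equality. With the TMM factors of the whole libraries it was also lower in 6 of 8 gates.

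Cd80 was spread most evenly. Its level ran from 2.83 CPM in the stromal gate to 11.5 CPM in the mature neutrophil gate of the THP library, and from 3.12 CPM in the progenitor gate to 9.31 CPM in the mature neutrophil gate of the vehicle library. The mature neutrophil values rest on 28 and 25 UMIs. In the monocyte gate it had 6.60 CPM (5.24 to 8.22) against 7.30 CPM (6.19 to 8.55), and in the macrophage gate 4.28 CPM (3.92 to 4.65) against 5.89 CPM (5.36 to 6.46). The macrophage gate was the only one of the 8 whose ratio interval, scaled by total UMIs, excluded equality. Cd80 was lower with THP in 6 of 8 gates, but higher in 6 of 8 with TMM scaling. The TMM factors were those of the whole libraries and were not computed per gate.

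Of the 8 compared gates, Cd274 was highest in the osteoclast-like one, with 451 UMIs or 23.6 CPM (21.5 to 25.9) with THP and 329 UMIs or 15.4 CPM (13.8 to 17.2) with vehicle, a log2 ratio of 0.58. The mature neutrophil gate came next among THP cells, at 10.7 CPM (6.99 to 15.7), against 4.10 CPM (2.05 to 7.33) with vehicle, from 26 and 11 UMIs. The MHC class II high gate had 8.42 CPM against 3.87 CPM, with a log2 ratio of 0.95, and the macrophage gate 7.19 CPM (6.72 to 7.67) against 4.67 CPM (4.20 to 5.18), with a log2 ratio of 0.53. The THP intervals of the last 3 gates overlapped. The monocyte gate (3.88 and 4.25 CPM) and the progenitor gate (3.75 and 3.43 CPM) had intervals of the ratio that included equality. The stromal gate had 5 and 7 UMIs.

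Pdcd1lg2 stayed under 4 CPM in each of the 8 gates. Its highest level was in the mature neutrophil gate, with 5 UMIs or 2.06 CPM with THP and 9 UMIs or 3.35 CPM with vehicle. In the macrophage gate it had 30 UMIs or 0.239 CPM against 17 UMIs or 0.221 CPM. The stromal gate held 0 UMIs in both libraries, with upper limits of the exact interval at 2.09 CPM with THP and 1.30 CPM with vehicle.

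Over the 48 combinations of gene and gate, 12 had 10 CPM or more in either library. Of those, 5 were at least 2-fold higher and 0 were at least 2-fold lower with THP. Each of the 5 reached 10 CPM with THP only, so at its vehicle level it could not have been counted as lower. The count of 5 against 0 is therefore partly set by the minimum of 10 CPM. The 5 were Cd40 in the macrophage gate, where 1.00% of all genes tested were higher, Cd40 in the osteoclast-like gate, where 0.805% were, Cd40 and Cd83 in the MHC class II high gate, where 1.18% were, and Cd274 in the mature neutrophil gate, where 2.13% were higher and 14.1% lower. The last rests on 26 and 11 UMIs in a gate whose median cell had 2164 and 1933 UMIs. The corresponding shares of lower genes were 2.64%, 1.83% and 4.96% in the macrophage, osteoclast-like and MHC class II high gates. In the monocyte gate 0.826% of genes were higher and 2.71% lower, in the immature neutrophil gate 1.47% and 5.35%, in the progenitor gate 0.693% and 2.40% and in the stromal gate 2.77% and 6.60%, with none of the 6 genes called there. The macrophage gate held more of the THP than of the vehicle cells. When the gates were mixed in the vehicle proportions in both libraries, the log2 ratio of Cd40 was 1.69, of Cd83 0.88 and of Cd274 0.43.

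**Figure D3:**
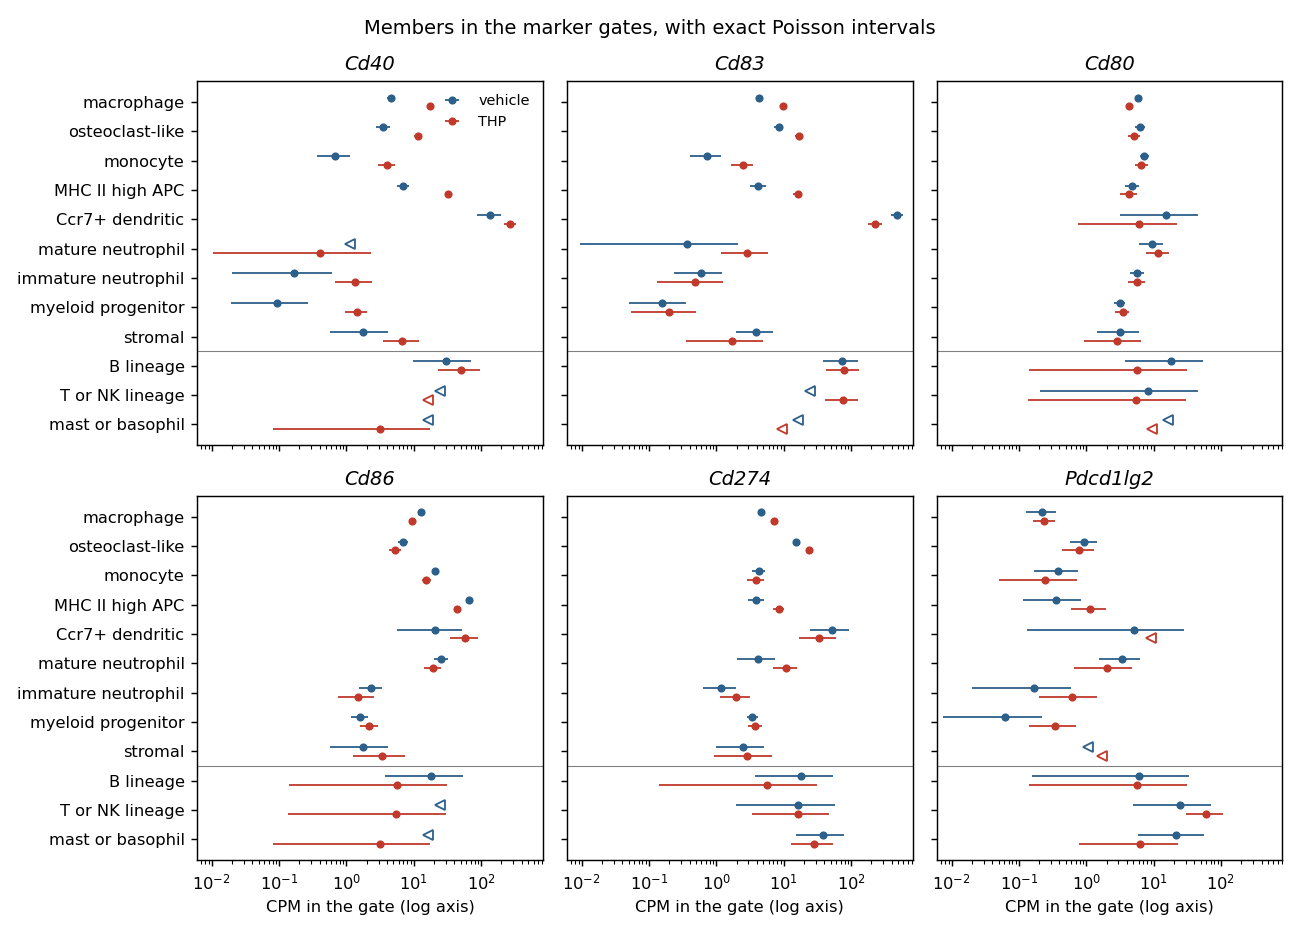
Level of each gene (CPM, log axis) in the 12 marker gates of the THP and vehicle libraries, with exact Poisson 95% intervals. Open triangles mark 0 UMIs and are drawn at the level of 3 UMIs. The line sets apart the last gates, which held few cells. The Ccr7+ dendritic gate lies above the line but also held few cells and is not among the 8 compared. Among the 8 compared gates, Cd40 and Cd86 are highest in MHC class II high cells, Cd274 is highest in the osteoclast-like gate (23.6 and 15.4 CPM), and Cd80 varies least.

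A gate of Ccr7+ mature dendritic cells (Ccr7, Fscn1, Ccl22 and others) held only 37 THP and 29 vehicle cells and was left out of the comparison. Ccr7+ dendritic cells are the classical site of high CD40, CD83 and CD86. In this gate Cd40 was at 270 CPM (216 to 333) with THP and 134 CPM (87.4 to 196) with vehicle, from 88 and 26 UMIs, with up to 28 and 13 UMIs in a single cell. Cd83 was at 230 CPM (181 to 288) and 479 CPM (386 to 586), from 75 and 93 UMIs. Cd86 was at 58.3 CPM and 20.6 CPM, from 19 and 4 UMIs, and Cd274 at 33.7 CPM and 51.5 CPM, from 11 and 10 UMIs. Cd80 had 2 and 3 UMIs and Pdcd1lg2 0 and 1. These cells were 0.305% and 0.264% of kept cells and held 2.70% and 3.99% of Cd40 UMIs and 3.69% and 11.6% of Cd83 UMIs.

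RNA set free from broken cells can give UMIs in cells that do not express a gene. Neutrophils should lack the C1q genes, and in the immature neutrophil gate their level was 2.03% to 2.46% of that in the macrophage gate with THP, and 1.49% to 2.05% with vehicle. Adgre1, another macrophage marker, was at 6.55% (5.79 to 7.38) and 5.21% (4.59 to 5.88). The median cell of the immature neutrophil gate had 5855 and 6465 UMIs, against 20678 and 22538 in the macrophage gate. Cd40 in that gate was at 7.72% (3.85 to 13.8) and 3.68% (0.446 to 13.3) of its macrophage level, Cd83 at 5.06% (1.38 to 12.95) and 13.6% (5.45 to 27.9), Cd86 at 15.3% (7.93 to 26.8) and 18.1% (12.02 to 26.1), and Cd274 at 27.2% (15.6 to 44.2) and 24.996% (13.7 to 41.9). The THP interval of Cd83 and the vehicle interval of Cd40, from 4 and 2 UMIs, included both the C1q and the Adgre1 levels, and the THP interval of Cd40 included the Adgre1 level and not the C1q levels. No expression is read from these values. Cd80 was at 132% (96.4 to 176) and 96.3% (74.8 to 122), with intervals that included the macrophage level.

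Some cells of the macrophage gate carried a strong interferon response. This split was added after values had been seen: cells with at least 20 UMIs per 10000 from 8 interferon-induced genes (Rsad2, Ifit1, Ifit2, Ifit3, Isg15, Cxcl10, Usp18 and Oasl1) were set against the other cells of the gate. There were 111 such THP cells and 38 such vehicle cells, against 4935 and 2979 others. Cd274, which encodes PD-L1 and is a known interferon target, was at 31.1 CPM (25.04 to 38.1) in interferon-high and 6.61 CPM (6.16 to 7.08) in other THP cells. In the vehicle library it was at 29.9 CPM (19.9 to 43.3) and 4.36 CPM (3.90 to 4.86). Cd40 was at 45.6 CPM (38.2 to 53.9) against 16.8 CPM (16.0 to 17.5) in THP cells and at 27.8 CPM (18.2 to 40.7) against 4.24 CPM (3.79 to 4.73) in vehicle cells. Cd86 was at 19.6 against 9.33 CPM and at 23.5 against 12.8 CPM. Interferon-high cells thus had the higher level of Cd274, Cd40 and Cd86 in both libraries, with intervals that did not overlap. Cd83 was at 12.5 CPM (8.79 to 17.2) against 9.61 CPM (9.07 to 10.2), and at 6.42 CPM (2.35 to 14.0) against 4.28 CPM (3.83 to 4.77), and the intervals overlapped. Cd80 was at 5.06 against 4.26 CPM and at 4.28 against 5.91 CPM, also with overlap. In the other cells of the gate, Cd40 still differed between the libraries, at 16.8 and 4.24 CPM.

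**Figure D4:**
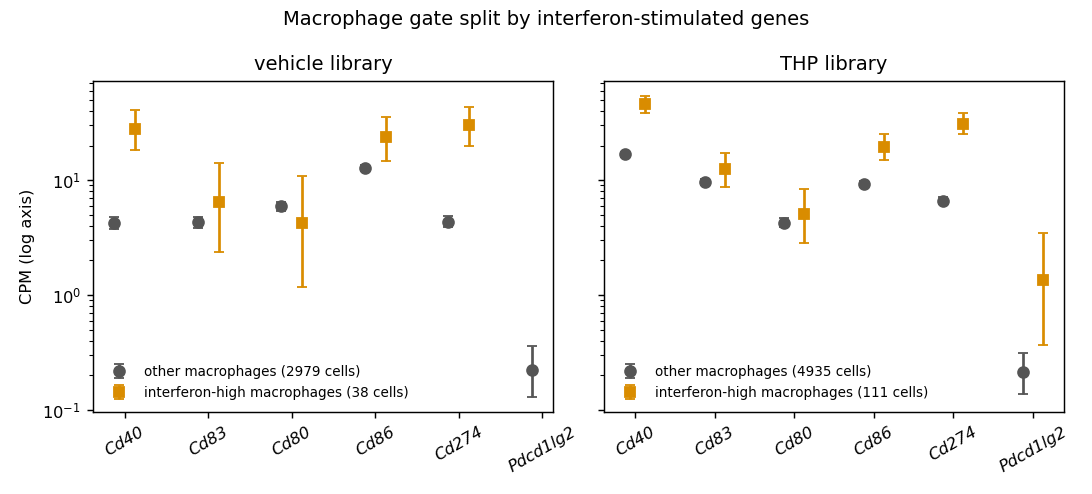
Level of each gene (CPM, log axis) in interferon-high and other cells of the macrophage gate, by library, with exact Poisson 95% intervals; Pdcd1lg2 in vehicle interferon-high cells had 0 UMIs and is not drawn. Cd274 was near 30 CPM in interferon-high cells of both libraries (31.1 and 29.9 CPM). Cd40 was higher in THP than in vehicle cells on both sides of the split. In interferon-high cells its intervals overlapped (38.2 to 53.9 CPM with THP and 18.2 to 40.7 CPM with vehicle).

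Few cells showed a UMI of several of the 6 genes at once. After thinning to 5000 UMIs, 81.2% of THP and 86.2% of vehicle cells had a UMI of none of the 6 genes. At such low levels, thinning would leave most cells without a UMI even if every cell expressed these genes equally. The shares therefore do not show how many cells express several of the 6 genes. A UMI of 3 or more of them was found in 17 cells of 10165 with THP (0.167%, 0.0975 to 0.268) and in 8 cells of 9012 with vehicle (0.0888%, 0.0383 to 0.175). In the MHC class II high gate this was 9 cells of 668 with THP (1.35%, 0.618 to 2.54) and 2 cells of 684 with vehicle (0.292%, 0.0354 to 1.05), with overlapping intervals. Within that gate Cd40 and Cd83 were found together in 18 THP cells, where the product of their shares gives 8.41, a ratio of 2.14 (1.27 to 3.38). In the macrophage gate of the THP library, Cd83 and Cd274 were found together in 15 cells against 7.15 from the product, a ratio of 2.10 (1.17 to 3.46), and Cd40 and Cd80 in 17 against 8.35, a ratio of 2.04 (1.19 to 3.26). Cd40 and Cd83 were found together there in 18 cells against 17.1, a ratio of 1.05 (0.624 to 1.66). There were 15 pairs of genes in each gate and library, and these pairs were picked after their values were seen. Doublets were not removed.

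Across the 17 combinations of gate and library with at least 50 cells, Cd40 and Cd83 followed each other most closely among the 6 genes, with a Pearson r of 0.88 on log2(CPM + 1). The 17 were the 8 compared gates in both libraries and the B lineage gate of the THP library, with 74 cells. That gate had the highest Cd40 (50.2 CPM, 9 UMIs) and Cd83 (78.1 CPM, 14 UMIs) of the 17, and r without it was not computed. The 17 points share libraries and differ in depth, so r is a description. Among 8683 other genes, the closest to Cd40 were H2-K1, an MHC class I heavy chain (r = 0.91), H2-M3 (0.90) and Grap (0.89). The closest to Cd83 were Ctso (0.93), Grap (0.92) and Mcoln2 (0.92). Cd86 was nearest to Usp18 (0.91) and Oasl1 (0.90), both interferon-induced, and to Itgb7 (0.90). Cd80 was nearest to Bcl2l11 (0.86), Slfn2 (0.85) and Nfkbid (0.85). Cd274 was nearest to Fth1, the ferritin heavy chain (0.83), Atp6v1f (0.82) and Bcl2a1b (0.81). Pdcd1lg2, at its low counts, was nearest to Gdpd3 (0.87), Btg1 (0.86) and Lrp10 (0.86).

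Genes that work with these ligands were then read from 8 lists, with the same size rule and over all kept cells. The counts of each list stand beside the 0.911% of all genes tested that were higher and the 2.97% that were lower. The lists were chosen with earlier results of these data known, so their counts are descriptions and no independent support. Of 15 genes of CD40 signalling, 13 were tested, that is, had 10 CPM or more in either library, 5 were higher and 0 lower, and the median log2 ratio was 0.45, against -0.18 over all genes tested. Traf1, an adaptor of the TNF receptor family, was at 44.9 CPM with THP and 8.56 CPM with vehicle (log2 ratio 2.26). Nfkb2, the p100 subunit of NF-kB, was at 57.3 and 19.6 CPM (1.502), and its partner Relb at 53.6 and 21.2 CPM (1.30). Nfkbia, the NF-kB inhibitor, was at 337 and 115 CPM, and Birc3, a ubiquitin ligase bound to TRAF proteins, at 47.8 and 22.7 CPM (1.04). Relb and Birc3 are named to complete the 5 and were chosen after their values were seen. With TMM scaling the counts were again 5 and 0. Of the 13 tested, 10 had a positive log2 ratio and 3 a negative one, Traf6 (-0.39), Traf3 (-0.21) and Birc2 (-0.14). With TMM scaling 12 were positive. Cd40lg, which encodes CD40 ligand, had 2 UMIs with THP and 10 with vehicle. These genes too were named after their values were seen. Whether CD40 signalled in these cells was not tested.

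Of the 8 listed symbols for surface turnover of CD86 and PD-L1, 6 were in the files and all of these had at least 10 CPM; 0 were higher and 1 was lower. The lower one was March1, the ubiquitin ligase that removes CD86 and MHC class II from the surface, at 16.8 CPM with THP and 49.2 CPM with vehicle (log2 ratio -1.496, and -1.22 with TMM scaling). Cmtm6, which keeps PD-L1 on the surface, was at 26.9 and 40.0 CPM (-0.55) and Spop at 105 and 137 CPM (-0.39). The median of the list was -0.37. Among adhesion partners in T cell contacts, 5 of 6 were tested, 1 was higher and 0 lower, with a median of -0.09. Icam1, the ligand of LFA-1, was at 110 and 30.4 CPM (1.82), Alcam at 141 and 228 CPM (-0.69) and Cd48 at 72.1 and 62.0 CPM (0.22).

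Of 12 other inhibitory ligands and receptors of myeloid cells, 8 were tested, 0 were higher and 2 lower, with a median of -0.15. The 2 were Lilrb4a, at 36.2 and 74.8 CPM (-1.03), and Ceacam1, at 17.2 and 35.6 CPM (-1.003), and neither passed 2-fold with TMM scaling. Cd200r1, the receptor of CD200, was at 44.0 and 70.8 CPM (-0.68). Of 6 other B7 and butyrophilin genes, 2 were tested and 0 were called in either direction. Icosl, the ligand of ICOS, was at 14.3 and 8.59 CPM (0.68) and Vsir, which encodes the checkpoint protein VISTA, at 69.1 and 138 CPM (-0.99). Of 9 genes of the interferon-gamma axis, 7 were tested, 0 were called, 6 were negative, and the median was -0.42. With TMM scaling that median was -0.13 and 6 were still negative. Ifngr1, a receptor subunit, was at 102 and 165 CPM (-0.69), and Irf2 at 87.6 and 124 CPM (-0.49). Of 8 genes of TNF superfamily costimulation only Tnfsf9, the 4-1BB ligand, was tested, at 25.5 and 23.6 CPM (0.11). Of 5 T cell counter-receptors only Cd28 was tested, at 7.80 and 10.6 CPM (-0.40). The libraries differed in their mix of gates. Within the macrophage gate alone the log2 ratio was 2.30 for Traf1, 1.37 for Nfkb2, 1.448 for Nfkbia, 1.10 for Relb, 1.004 for Birc3, 1.70 for Icam1 and -1.72 for March1. It was -0.99 for Lilrb4a and -0.57 for Ceacam1, so both were under 2-fold there.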

How the data were processed

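Single-cell RNA was counted in 2 libraries, 1 per group. The deposited matrices hold, for every gene in every barcode, the raw UMI count (matrix software version 3.1.0, format version 2, per the file headers). The submitters' processing notes name Cell Ranger, bcl2fastq, STAR and mm10, with versions not given in the sources used here. Coordinates and transcript lengths came from GENCODE M21 on GRCm38, which had 31011 of the 31053 genes.

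Barcodes with at least 500 genes, at least 1000 UMIs and at most 10% mitochondrial UMIs were kept. No doublet caller was run. An alternative left out the top 5% of cells by UMIs. UMIs were summed per library, or per library and marker gate, and divided by the total to give CPM. Levels had exact Poisson and shares exact Clopper-Pearson 95% intervals. The ratio was that of CPM + 1 and a call needed 2-fold and 10 CPM. A gate needed a marker sum per 10000 UMIs and 2 or 3 markers with a UMI. Cells of more specialised gates were kept out of the macrophage, monocyte, neutrophil, progenitor and MHC class II high gates. Cells were thinned at random with a fixed seed. The named genes were the 6 members, up to 3 genes per list with the largest absolute log2 ratio at 10 CPM or more, and the 3 genes most like each member over gates. A listed gene that this rule names is not reported here. The members and lists were chosen with earlier results of these data known. Alternatives covered scaling, fold, minimum, pseudocount, barcode filter, cell weights, cell mix, transcript length, gate thresholds and thinning depth. The calculations were tested on simulated data and used Python 3.11.15, numpy 2.4.6, scipy 1.17.1, pandas 2.3.3, matplotlib 3.10.9, R 4.3.3 and, for TMM and RLE factors, edgeR 4.0.16, with no edgeR test.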

Additional observations from a re-analysis of the deposited data

How the results depend on the processing

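Cd40 was higher at 2-fold in each of the 12 alternatives, and Cd86 stayed lower and under 2-fold in each. The fold limit of 1.5, the minimum of 1 CPM and no minimum leave all ratios unchanged by design. The number of the 6 genes counted as higher was 2 instead of 1 with a minimum of 1 CPM, with no minimum and with equal weight per cell, because Cd83 was added. Over all genes, TMM factors gave 138 higher and 69 lower, RLE factors 138 and 69, a fold limit of 1.5 gave 187 and 1387, and a correction for transcript length 115 and 71, against 73 and 238. When cells that pass more than 1 gate were put in the gate passed by the widest margin, 1 of 54 combinations of gene and gate was lower, against 0 of 48. In the other 48 recomputed counts the value stayed within 1.5 times of the reported one, and no called value changed sign. Cd80 had a log2 ratio of 0.02 with TMM and RLE factors and a negative one otherwise. Leaving out the barcodes found in both libraries, an alternative added after seeing the data, moved no count of calls by 1.5 times. No paired analysis was possible because each group had 1 library and the labels carry no replicate numbers. A transcript length correction was applied over windows of 500 genes. Depth limits Pdcd1lg2 (124 and 90 UMIs) and all 6 genes in the mature neutrophil and stromal gates.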

Other observations

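The small gates, each under 50 cells in at least 1 library, are given as values only. The B lineage gate held 74 THP and 48 vehicle cells. In it Cd83 was at 78.1 CPM (42.7 to 131) and 73.2 CPM (37.8 to 128), from 14 and 12 UMIs, and Cd40, which B cells carry, at 50.2 CPM (23.0 to 95.3) and 30.5 CPM (9.91 to 71.2), from 9 and 5 UMIs. The gate of T or NK lineage cells held 43 and 31 cells. It had 11 and 3 Pdcd1lg2 UMIs, or 60.0 CPM (29.9 to 107) and 24.3 CPM (5.02 to 71.1), and 0 Cd40 UMIs in both libraries. Those 43 THP cells were 0.355% of kept cells and held 8.87% of the Pdcd1lg2 UMIs of the library. Cd83 had 14 UMIs in the THP cells of this gate and 0 in the vehicle cells. The gate of mast cells or basophils held 48 and 27 cells. It had 9 and 7 Cd274 UMIs, or 28.5 CPM (13.02 to 54.1) and 37.8 CPM (15.2 to 77.8), and 2 and 4 Pdcd1lg2 UMIs, while Cd80 and Cd83 had 0 UMIs in both libraries.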
